A study of Homo sapiens with 6 samples.

Results

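The enzymes that modify tRNA and other RNA were followed in MM1S cells, on 3 arrays of cells in hypoxia for 24 h and 3 arrays of cells in normoxia. Members were all genes whose symbol begins with PUS, TRUB, TRMT, NSUN, METTL, FTSJ, ALKBH or ELP and then a digit, with DUS1L, DUS2, DUS3L, DUS4L and FTO. MM1S is an established line from a human multiple myeloma, a plasma cell cancer. The name rule gave 73 of the 19775 genes measured, and it was set with earlier results of these data known. Both groups are the same line with no further label of genotype or agent; the sources used here give neither the oxygen level nor how the normoxia cells were kept. Each gene was read from its brightest probe set that carries its symbol alone. A level is a linear intensity, and a change is hypoxia minus normoxia in log2(intensity + 16), a scale that understates the change of dim genes. Levels of different genes cannot be compared on these arrays. A call is an adjusted p under 0.05 from limma with Benjamini-Hochberg adjustment over all 19775 genes, and intervals are at the 95% level.

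Cells alter RNA bases and riboses after transcription. In tRNA, pseudouridine synthases rearrange uridine, methyltransferases add methyl groups, dihydrouridine synthases reduce uridine, and the Elongator complex starts the side chain of the wobble uridine that helps to decode some codons. In mRNA, the methyltransferase pair METTL3 and METTL14 writes N6-methyladenosine, and FTO and ALKBH5 can remove it. FTO and the AlkB homologues are dioxygenases that use molecular oxygen, iron and 2-oxoglutarate. Shared name stems do not mean a shared substrate: several METTL proteins methylate proteins, and some ALKBH proteins act on DNA or protein.

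All 9 plasma cell and myeloma marker genes lay above the array median (54.95 to 60.1) on every array. Of the markers fixed for other cell types, 1 of 4 for T cells, 1 of 4 for myeloid cells, 1 of 2 measured for erythroid cells, 0 of 4 for epithelial cells and 1 of 4 for stromal cells did. The erythroid sum, mostly HBB, was 1139 to 1190.3 in hypoxia and 1717 to 1936 in normoxia, and the epithelial sum was 151 to 161 in hypoxia and 88.6 to 121 in normoxia; their part in the results was not tested. Among the plasma cell markers, CD38, SLAMF7, SDC1 and MZB1 fell by 0.71, 0.34, 0.30 and 0.26, and XBP1 rose by 0.22. IRF4, JCHAIN, PRDM1 and TNFRSF17 did not pass. A sum adds linear intensities, so its brightest probe sets weigh most and it can hide such changes. Summed levels were 53664 to 56154 in hypoxia and 54816 to 56816 in normoxia for plasma cell markers. They were 209.7 to 256 in hypoxia and 206 to 271 in normoxia for T cell markers, 150.4 to 187 in hypoxia and 150.2 to 158 in normoxia for myeloid markers, and 219.6 to 288 in hypoxia and 274.5 to 309 in normoxia for stromal markers. In bulk RNA, fewer cells of a kind and less RNA per cell cannot be told apart. The labels do not say that replicates came from separate cultures, so the spread behind every p-value may be technical only.

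Transcripts of RNA modification enzymes were mostly lower in hypoxia. Of the 73 members, 39 fell (53.4%; 20.6% of all genes fell) and 10 rose (13.7%; 16.9% of all genes rose), while 24 did not pass. Together 49 passed (67.1%; 37.4% of all genes passed). The median change was -0.34 over the members and -0.00016 over all genes. At least 2-fold falls were found for 11 members (15.1%; 4.75% of all genes), and at least 2-fold rises for 0 members (2.92% of all genes); the 10 that rose by less are given below. For 56 members (76.7%; 47.9% of all genes) the arrays of the conditions did not overlap. The members were brighter than most genes, with a median brightness percentile of 68.7, and brighter genes passed more often. Among the 11483 genes with a mean level of at least 64, 32.1% fell and 25.3% rose, and of the 67 members there 39 fell and 10 rose. Of the same 11483 genes, 8055 had no overlap of the conditions and 868 fell at least 2-fold, against 56 and 11 of the 67 members. The remaining 6 members (METTL21C, METTL21EP, METTL14-DT, ALKBH3-AS1, NSUN7 and TRMT9B) lay below every array's median in both groups, where signal cannot be told from background, and did not pass.

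**Figure D1:**
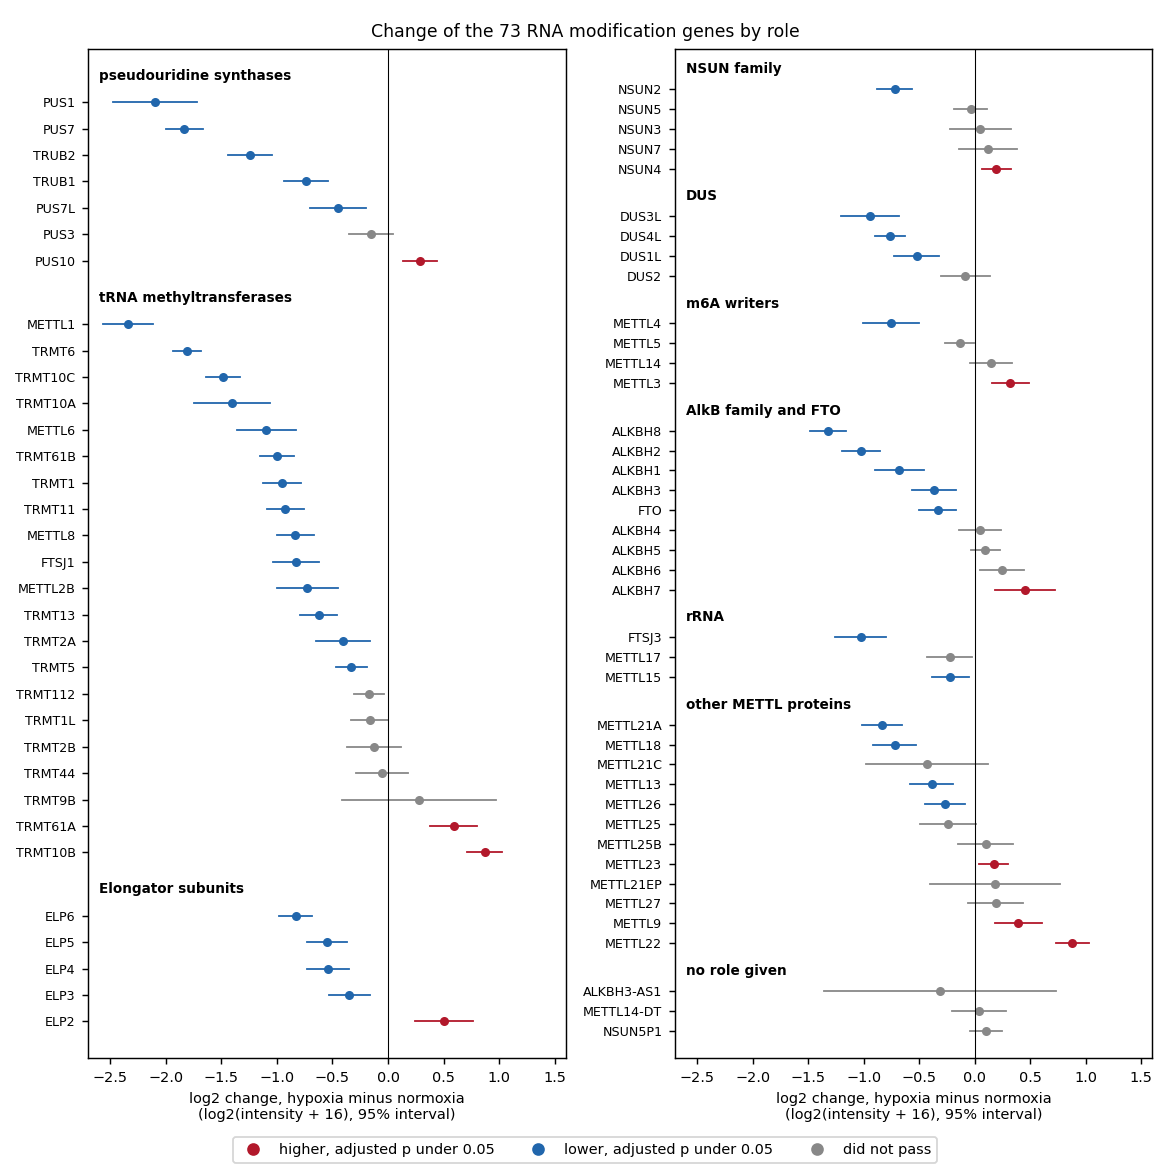
Log2 change (hypoxia minus normoxia, horizontal axis) of each of the 73 members with its 95% interval, grouped by role; METTL5, which is counted under 2 roles in the text, is drawn once. Most points of the pseudouridine synthases, tRNA methyltransferases and dihydrouridine synthases lie left of 0, from METTL1 at -2.34, while METTL22 at 0.88 lies farthest to the right.

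**Figure D2:**
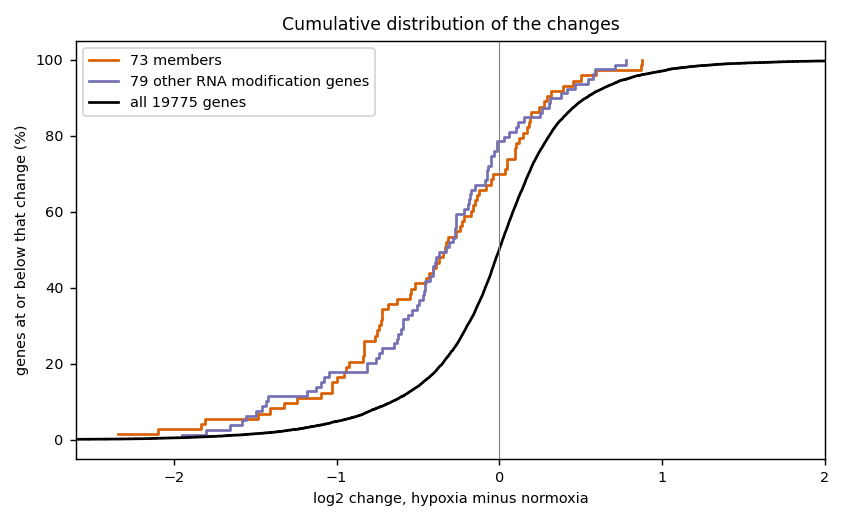
Share of genes (%) at or below each log2 change for the 73 members, for 79 other RNA modification genes and for all 19775 genes. The curves of both RNA modification sets lie left of the curve of all genes over most of the range, with medians of -0.34 and -0.33, against -0.00016.

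Members that move together can be set beside their promoter letters. RefSeq promoter windows (GRCh38.p14, 250 bases before to 50 after a start) were found for 60 members, in 81 windows. The motif searched first was CACGTG, the palindromic E-box bound by MYC and MAX among other factors; 5 of 81 windows of members held it (6.17%), against 7.26% of all 35116 windows and 8.36% of the 21490 windows of genes measured here. The 5 windows that hold it are shown from 80 bases before to 40 after the start, with the motif in capitals, because they include both subunits of one tRNA methyltransferase, TRMT6 and TRMT61A. A match is a description of these letters, not a binding site.
TRMT6, chr20:5950494-5950613, minus strand: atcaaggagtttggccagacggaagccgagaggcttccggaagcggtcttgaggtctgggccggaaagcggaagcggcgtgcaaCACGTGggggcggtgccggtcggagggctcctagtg
TRMT61A, chr14:103529116-103529235, plus strand: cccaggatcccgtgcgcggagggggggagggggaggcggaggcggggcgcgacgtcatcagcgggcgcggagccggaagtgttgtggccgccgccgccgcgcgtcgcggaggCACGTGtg
PUS7, chr7:105522232-105522351, minus strand: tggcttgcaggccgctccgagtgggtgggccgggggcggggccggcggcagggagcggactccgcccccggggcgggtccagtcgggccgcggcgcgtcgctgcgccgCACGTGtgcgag
TRUB2, chr9:128322179-128322298, minus strand: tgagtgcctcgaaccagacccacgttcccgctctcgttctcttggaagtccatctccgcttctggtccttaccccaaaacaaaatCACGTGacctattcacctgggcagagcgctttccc
METTL21A, chr2:207625898-207626017, minus strand: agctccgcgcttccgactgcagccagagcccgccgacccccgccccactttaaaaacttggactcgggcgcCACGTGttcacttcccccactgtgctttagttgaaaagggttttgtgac
With the start counted as position 1, the motif began at position 5 in TRMT6, 33 in TRMT61A, 29 in PUS7 and 6 in TRUB2, and in METTL21A it began 9 bases before the start. PUS7, TRMT6, TRUB2 and METTL21A fell, and TRMT61A rose on its brightest probe set but not on its other 2. METTL1 and PUS1, the members with the deepest falls, had no window in the table and were not searched.

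Most pseudouridine synthase transcripts fell: of 7 measured genes, 5 fell, 1 rose and 1 did not pass, with a median change of -0.74. Shares over all genes with a mean level of at least 64 were 32.1% fell and 25.3% rose. PUS1, which modifies tRNAs in the nucleus and in mitochondria, had levels of 125, 197 and 164 on the hypoxia arrays, against 749, 704 and 757 on the normoxia arrays. Its hypoxia arrays all lay far below the normoxia arrays, with more scatter in hypoxia, and it fell by 2.10 (interval -2.48 to -1.72, adjusted p = 0.000186). PUS7, which acts on tRNA and mRNA, had 377, 386 and 349.6 on the hypoxia arrays, against 1401, 1402 and 1286 on the normoxia arrays, with tight groups (change -1.83, adjusted p = 3.39e-05). TRUB2, a mitochondrial synthase, had 308, 365 and 326 on the hypoxia arrays, against 770.4, 842 and 815 on the normoxia arrays and fell by 1.24 (adjusted p = 0.000131). Its paralogue TRUB1, which acts on tRNA and mRNA, fell by 0.74, and PUS7L, the paralogue of PUS7, fell by 0.45, a call that was lost without hypoxia array 1 (-0.43, adjusted p = 0.0578) or without hypoxia array 2 (-0.39, adjusted p = 0.0561). PUS10, which can modify the arm of tRNA named for pseudouridine, went the other way, at 216 ± 9.59 in hypoxia and 174 ± 6.30 in normoxia (SD, n = 3 each; change 0.29, adjusted p = 0.0122). PUS3 was at -0.15 with overlapping arrays (adjusted p = 0.215). PUS1 and PUS7 ranked 70 and 139 among the 19775 genes ordered from the deepest fall.

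Of 21 measured tRNA methyltransferase genes, 14 fell, 2 rose and 5 did not pass, with a median change of -0.73, and 5 fell at least 2-fold. Over all genes, 20.6% fell, 16.9% rose and 4.75% fell at least 2-fold. Among the 11483 genes with a mean level of at least 64, which TRMT9B does not reach, 32.1% fell, 25.3% rose and 868 fell at least 2-fold. METTL1, which methylates guanosine in the variable loop of tRNAs, had 168, 192 and 154 on the hypoxia arrays, against 908, 910.5 and 977 on the normoxia arrays. All hypoxia arrays lay far below the normoxia arrays. METTL1 fell by 2.34 (5.07-fold on this scale, interval -2.56 to -2.12, adjusted p = 3.68e-05) and ranked 27 among the falls of all 19775 genes. WDR4, the partner subunit of METTL1 and not itself a member, also fell, by 1.56 (adjusted p = 0.000101). The difference between the changes of METTL1 and WDR4 was -0.78, with no overlap of the arrays (exact two-sided permutation test over arrays, p = 0.1, the smallest that 3 against 3 arrays allow). Of 5 pairs of genes compared in this way, chosen after the values were seen, 4 were at that p (0.125 after Benjamini-Hochberg adjustment of the exact permutation p-values over the 5).

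The adenosine methyltransferase of cytosolic tRNA is built of TRMT6, which helps to bind the tRNA, and TRMT61A, which carries the catalytic site. TRMT6 had 441, 435 and 444 on the hypoxia arrays, against 1607, 1575 and 1557 on the normoxia arrays, with little scatter in either group. It fell by 1.81 (interval -1.93 to -1.68, adjusted p = 2.07e-05), and its other probe set fell by 1.78. TRMT61A had 276, 295 and 282 on the hypoxia arrays, against 166, 180.1 and 205 on the normoxia arrays, higher on every hypoxia array (change 0.59, adjusted p = 0.00263). The difference between the changes of TRMT6 and TRMT61A was -2.40 (exact two-sided permutation test, p = 0.1, the smallest possible). The rise of TRMT61A rests on 1 of its 3 probe sets: the others were at -0.36 and -0.22 and did not pass, and the mean of all 3 gave a change of 0.0062 (limma adjusted p = 0.977).

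The TRMT10 paralogues methylate the purine between the acceptor and D arms of tRNA. TRMT10C, a subunit of mitochondrial RNase P, had 695, 657 and 646 on the hypoxia arrays, against 1954, 1800.4 and 1924 on the normoxia arrays and fell by 1.48 (adjusted p = 4.13e-05). TRMT10A, the cytosolic enzyme, had 111, 149 and 159 on the hypoxia arrays, against 359, 415 and 408 on the normoxia arrays and fell by 1.41 (adjusted p = 0.000552); both of its other probe sets fell, by 1.36 and 0.97. TRMT10B was higher on all hypoxia arrays, at 194 ± 11.6 in hypoxia and 98.6 ± 2.62 in normoxia (SD, n = 3 each; change 0.87, adjusted p = 0.000189), while its other probe set was at 0.11 and did not pass. The difference between the changes of TRMT10A and TRMT10B was -2.28 (exact two-sided permutation test, p = 0.1, the smallest possible).

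The cytidine methyltransferases METTL6, METTL2B and METTL8 fell by 1.10, 0.73 and 0.83. METTL6 had 128, 172 and 152 on the hypoxia arrays, against 336, 326 and 351 on the normoxia arrays, with no overlap, and 2 of its 4 other probe sets fell, while METTL8 modifies mitochondrial tRNA. The probe set of METTL2B may also read its near-identical paralogue METTL2A, which was not analysed here because it had no probe set of its own. TRMT61B, a mitochondrial adenosine methyltransferase, fell by 0.996, TRMT1, which makes dimethylguanosine, fell by 0.95, and TRMT11, a guanosine methyltransferase, fell by 0.92. TRMT112, the small activator that TRMT11 shares with other methyltransferases, was at -0.17 (adjusted p = 0.0516) and passed when dim genes were left out (0.0146), with a pseudocount of 64 (0.0224) and when limma was given an intensity trend (0.00203). FTSJ1, which methylates ribose in the anticodon loop, fell by 0.83, and TRMT13, which does so in the acceptor stem, fell by 0.63; TRMT13 did not pass when its probe sets were averaged (-0.20, limma adjusted p = 0.0816). TRMT5, which methylates the guanosine beside the anticodon, fell by 0.33, and a dimmer probe set of it fell by 1.39. TRMT2A, a uridine methyltransferase, fell by 0.41 (adjusted p = 0.0212), a call that was lost at changes of -0.40 to -0.33 without hypoxia array 1 or 2 (adjusted p = 0.0679 and 0.0577), without normoxia array 0 or 1 (0.0674 and 0.0723) and with median centring (0.0502). TRMT1L, TRMT2B and TRMT44 were at -0.16, -0.12 and -0.052 and did not pass, as did TRMT9B at 0.28. TRMT1L passed when dim genes were left out (limma adjusted p = 0.0456), and a dimmer probe set of it rose by 0.54.

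**Figure D3:**
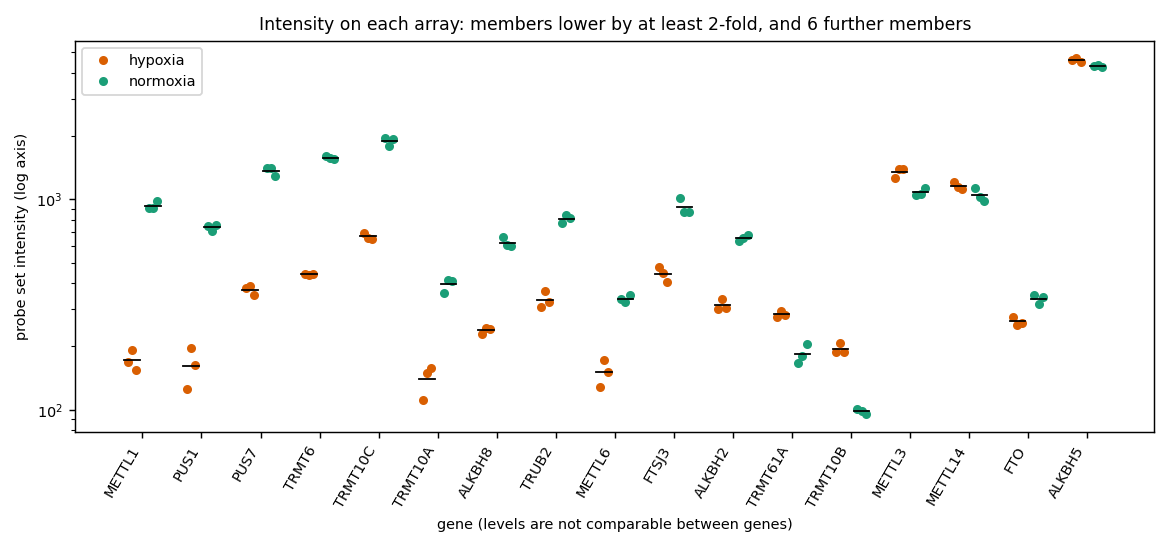
Probe set intensity (log axis) on each of the 3 hypoxia and 3 normoxia arrays, with the group mean as a bar, for the 11 members that fell at least 2-fold and for TRMT61A, TRMT10B, METTL3, METTL14, FTO and ALKBH5. The hypoxia points of the first 11 genes all lie below their normoxia points, those of TRMT61A, TRMT10B and METTL3 lie above, and those of METTL14 overlap.

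Of 5 Elongator subunit genes measured, 4 fell and 1 rose, with a median change of -0.54. Background shares were 32.1% fell and 25.3% rose, over all genes with a mean level of at least 64. The genes of the accessory ring, ELP4, ELP5 and ELP6, fell by 0.54, 0.55 and 0.83. ELP3, the catalytic subunit, had 747, 844 and 729 on the hypoxia arrays, against 983, 960.2 and 1019.6 on the normoxia arrays, without overlap of the conditions. It fell by 0.35 (adjusted p = 0.0132), its other probe set fell by 1.11, and the call was lost without normoxia array 2 (-0.33, adjusted p = 0.0513). ELP2, a scaffold of repeated propeller blades, was higher by 0.50 on its brightest probe set, which is the rise counted here (adjusted p = 0.0120), but its probe sets disagreed: another rose by 1.36 and 3 fell, by 1.16, 1.08 and 0.69. Averaged over the probe sets, ELP2 was at -0.21 and did not pass (limma adjusted p = 0.0562), so no direction is given for the gene. The difference between the changes of ELP2 and ELP3 on their brightest probe sets was 0.85 (exact two-sided permutation test, p = 0.1, the smallest possible). ALKBH8, which methylates the side chain that Elongator begins, had 230.3, 244 and 242 on the hypoxia arrays, against 664, 603 and 598 on the normoxia arrays. It fell by 1.32 (interval -1.49 to -1.16, adjusted p = 6.14e-05), and its other probe set fell by 1.15.

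All 4 dihydrouridine synthase genes were measured, 3 fell and 1 did not pass, with a median change of -0.64. By comparison, 32.1% of all genes with a mean level of at least 64 fell. DUS3L, DUS4L and DUS1L fell by 0.94, 0.76 and 0.52 (adjusted p = 0.000914, 0.000180 and 0.00379). DUS2 had 396, 481 and 439 on the hypoxia arrays, against 448, 449 and 498 on the normoxia arrays, which overlapped (change -0.084, interval -0.31 to 0.14, adjusted p = 0.549). A dimmer probe set of DUS2 fell by 0.53, and the mean of both passed (-0.31, limma adjusted p = 0.0110).

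Of 5 measured NSUN genes, which encode cytosine methyltransferases, 1 fell, 1 rose and 3 did not pass, with a median change of 0.049. These shares are near those of all genes (20.6% fell and 16.9% rose). They are below those of all genes with a mean level of at least 64 (32.1% and 25.3%), which NSUN7 does not reach. NSUN2, which methylates many tRNAs and other RNAs, had 2085, 2255 and 2243 on the hypoxia arrays, against 3512, 3768 and 3613 on the normoxia arrays. The conditions were well apart, and NSUN2 fell by 0.72 (interval -0.88 to -0.57, adjusted p = 0.000340). NSUN4, which works on mitochondrial ribosomal RNA, rose by 0.19 (adjusted p = 0.0304), and that call was lost when any single array was left out (changes of 0.18 to 0.21, adjusted p = 0.0546 to 0.0938). NSUN3, NSUN5 and NSUN7 were at 0.049, -0.036 and 0.12. NSUN5, which modifies the large ribosomal RNA, and its pseudogene NSUN5P1 (0.10) may share probes, so their values are uncertain.

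METTL3 and METTL14, the pair that writes N6-methyladenosine in mRNA, were not among the members that fell. METTL3 is the catalytic subunit and had 1268, 1399.8 and 1391 on the hypoxia arrays, against 1051, 1059.6 and 1130.5 on the normoxia arrays. Every hypoxia array lay above the normoxia arrays, and METTL3 rose by 0.32 (interval 0.15 to 0.49, adjusted p = 0.0124); both of its other probe sets rose, by 0.83 and 0.59. METTL14, its RNA-binding partner, had 1214, 1150.0 and 1117 on the hypoxia arrays, against 1134, 1025 and 986 on the normoxia arrays, which overlapped (change 0.15, interval -0.039 to 0.33, adjusted p = 0.200), and it passed only with quantile normalization among the alternatives (0.24, adjusted p = 0.0296). The difference between the changes of METTL3 and METTL14 was 0.17 and did not pass (exact two-sided permutation test, p = 0.2, where the smallest possible is 0.1). METTL4, which methylates a small nuclear RNA, fell by 0.75 (adjusted p = 0.00195), and its other probe set fell by 1.42. METTL5, which writes the mark on the small ribosomal RNA, was at -0.14 with separate groups (adjusted p = 0.0990), and it passed when dim genes were left out (0.0325), with an intensity trend (0.00722) and when its probe sets were averaged (-0.39, adjusted p = 0.00963). With METTL5, these 4 writers held 1 gene that rose, 1 that fell and 2 that did not pass, with a median change of 0.0051. Those shares are near the 25.3% that rose and 32.1% that fell among all genes with a mean level of at least 64.

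Of the 9 AlkB homologue and FTO genes, 5 fell, 1 rose and 3 did not pass, with a median change of -0.34. For all genes with a mean level of at least 64, the shares were 32.1% fell and 25.3% rose. FTO and ALKBH5 encode the demethylases of N6-methyladenosine, and the difference between their changes was not tested. FTO had 277, 253 and 259 on the hypoxia arrays, against 350.3, 317 and 343 on the normoxia arrays, with every hypoxia array below the normoxia arrays (change -0.34, adjusted p = 0.0104). ALKBH5 had 4602, 4667 and 4500.2 on the hypoxia arrays, against 4282, 4359.9 and 4244 on the normoxia arrays, a small upward offset without overlap that did not pass (change 0.10, interval -0.032 to 0.22, adjusted p = 0.222) except when limma was given an intensity trend (0.0360). ALKBH2, a DNA repair enzyme that reverses alkylation, had 299.6, 338 and 305 on the hypoxia arrays, against 632, 658 and 678 on the normoxia arrays and fell by 1.03 (adjusted p = 0.000146). ALKBH1, which acts on tRNA among other substrates, and ALKBH3, which acts on alkylated DNA and RNA, fell by 0.68 and 0.37, the last not past the threshold with quantile normalization (-0.28, adjusted p = 0.0514). ALKBH7, a mitochondrial protein, rose by 0.45 (adjusted p = 0.0198) with a second probe set at 0.42 that also rose. That call was lost without hypoxia array 1 (0.39, adjusted p = 0.0639), hypoxia array 2 (0.44, 0.0656), normoxia array 0 (0.38, 0.0521) or normoxia array 1 (0.47, 0.0538). ALKBH4 and ALKBH6 were at 0.046 and 0.24 and did not pass; ALKBH6 passed under 4 alternatives, all upward (0.23 to 0.32, adjusted p = 0.0230 to 0.0382).

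Members that act on ribosomal RNA numbered 4 with METTL5, of which 2 fell and 2 did not pass, with a median change of -0.22. METTL15, 1 of the 2 that fell, had probe sets that disagreed, and 32.1% of all genes with a mean level of at least 64 fell. FTSJ3, a ribose methyltransferase of ribosome assembly, had 474, 446 and 406 on the hypoxia arrays, against 1015, 872 and 871 on the normoxia arrays and fell by 1.03 (adjusted p = 0.000404). METTL15, which methylates mitochondrial ribosomal RNA, fell by 0.22 at adjusted p = 0.0465, and the call was lost whichever of the 6 arrays was left out (-0.26 to -0.17, adjusted p = 0.0549 to 0.125). Its probe sets disagreed, with 2 dim ones higher by 1.58 and 0.49, and their mean was 0.19 (limma adjusted p = 0.0740), so no direction is given for it. METTL17, a factor of mitochondrial ribosome assembly, was at -0.23 with separate groups (adjusted p = 0.0819). METTL17 passed under 5 alternatives (-0.34 to -0.22, adjusted p = 0.0216 to 0.0479), and 2 of its other probe sets fell, by 0.54 and 0.35.

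The METTL proteins known or thought to act on proteins or other substrates numbered 12 measured symbols, of which 4 fell, 3 rose and 5 did not pass, with a median change of -0.072. These shares are near those of all genes with a mean level of at least 64 (32.1% fell and 25.3% rose). METTL21C and METTL21EP do not reach that level, and without that limit 20.6% of all genes fell and 16.9% rose. METTL22, a protein lysine methyltransferase, rose by 0.88 (at 529 ± 13.2 in hypoxia and 281 ± 12.7 in normoxia, SD, n = 3 each; adjusted p = 0.000148), the largest rise among the 73 members on their brightest probe sets, and its dimmer probe set was at 0.25 and did not pass. METTL9, a histidine methyltransferase, rose by 0.39 (adjusted p = 0.0144, and 0.0519 at a change of 0.35 without normoxia array 2). Its dimmer probe sets were at 0.75, which rose, and at 0.14 and -0.25, which did not pass. METTL23 rose by 0.17 at adjusted p = 0.0491, a call that was lost without any 1 of the 6 arrays (0.15 to 0.19, adjusted p = 0.0696 to 0.136). METTL21A, which methylates chaperones of the heat shock family, fell by 0.84, and METTL18, a histidine methyltransferase of a ribosomal protein, fell by 0.72. METTL13, which methylates a translation elongation factor, fell by 0.39, and its other probe sets fell by 1.14 and 0.65. METTL26 fell by 0.27 at adjusted p = 0.0318, and that call held only without hypoxia array 0 among the 6 arrays left out in turn (0.0174; for the others, changes of -0.30 to -0.23 and adjusted p = 0.0536 to 0.0999). METTL25, METTL25B and METTL27 were at -0.24, 0.10 and 0.19, and the dim METTL21C and METTL21EP at -0.43 and 0.18. METTL25 passed with quantile normalization (-0.28, adjusted p = 0.0434) and METTL21C without normoxia array 1 (-0.65, adjusted p = 0.0343). The antisense and divergent transcripts ALKBH3-AS1 and METTL14-DT, which the name rule also takes, were at -0.31 and 0.037, near background. With NSUN5P1 they were the 3 members given no role, of which 0 rose and 0 fell in limma on their brightest probe sets (0 at an unadjusted p under 0.05). In any alternative fit over genes, 0 of the 3 passed. A dimmer probe set of NSUN5P1 rose by 0.25 in the fit over all probe sets (limma adjusted p = 0.0443).

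Over all single-symbol probe sets of the members, 71 of 162 fell (18% of all 41091 such probe sets fell) and 19 rose (15.8% of all), with p adjusted over all probe sets; 33.8% of all passed in either direction. Another probe set was present for 31 of the 49 members that passed. Of these, 26 had another probe set past the threshold in the same direction and 5 had none past it; among the 26, ELP2 and METTL15 also had some past it in the opposite direction.

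**Figure D4:**
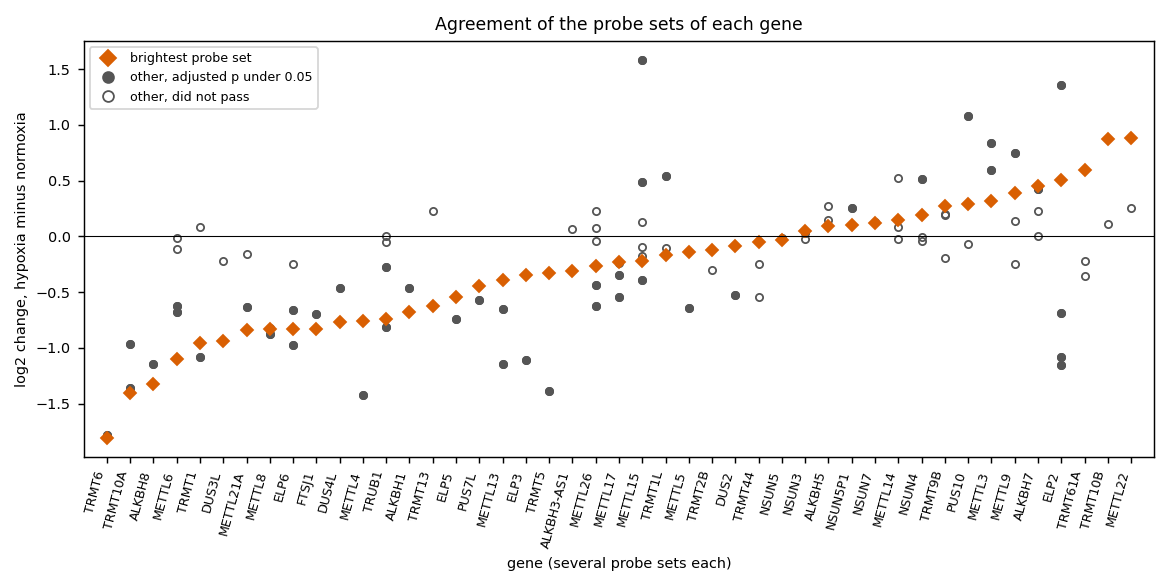
Log2 change (vertical axis) of every probe set of the 45 members that have several, ordered by the brightest probe set (diamonds); other probe sets are filled where their adjusted p is under 0.05 and open where not. Probe sets of TRMT6, TRMT10A, ALKBH8 and METTL3 lie on one side of 0, and those of ELP2 and METTL15 lie on both.

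RNA modification genes outside the name rule were also mostly lower. Of 79 such genes measured, 43 fell (20.6% of all genes fell), 10 rose (16.9% of all genes rose) and 26 did not pass, with a median change of -0.33. They were bright, with a median brightness percentile of 78.0. Among all genes with a mean level of at least 64, which 76 of the 79 reached, 32.1% fell and 25.3% rose. The lists that follow have the same background. Of 21 genes for ribosomal and mitochondrial RNA, 18 fell, 1 rose and 2 did not pass (median -0.72). NOP2, a cytosine methyltransferase of the NSUN kind, fell by 1.49, GAR1, a subunit of the small nucleolar particles that guide pseudouridylation, fell by 1.46, the pseudouridine synthase homologue RPUSD2 fell by 1.80, and SNU13, a core protein of the methylation guide particles, fell by 1.65. The other tRNA modification genes numbered 35, of which 19 fell, 3 rose and 13 did not pass (median -0.40). LCMT2, of the wybutosine pathway, fell by 1.95, QTRT2, a subunit of the enzyme that inserts queuine, fell by 1.58, WDR4 as given above, and THUMPD2 fell by 0.81. Of 13 partners and readers of N6-methyladenosine, 4 rose, 4 fell and 5 did not pass (median -0.053). These shares are near those of all genes with a mean level of at least 64 (25.3% rose and 32.1% fell), which IGF2BP1 does not reach. RBM15 and VIRMA, subunits of the METTL3 complex, rose by 0.58 and 0.78, while its subunits WTAP and RBM15B fell by 0.39 and 0.31. The nuclear reader YTHDC1 rose by 0.55, and the cytoplasmic reader YTHDF1 fell by 0.46. Of 8 cap and small RNA methyltransferase genes, 2 rose, 2 fell and 4 did not pass (median -0.12). Both shares are near or below those of all genes with a mean level of at least 64, which HENMT1 does not reach. TGS1, which makes the trimethylated cap, and RAMAC, the activator of the cap methyltransferase, fell by 1.08 and 0.47. CMTR1 and PCIF1, which methylate the first nucleotides of mRNA, rose by 0.71 and 0.38. Of the RNA adenosine deaminase genes ADAR and ADARB1, at -0.19 and 0.31, 0 passed in limma (adjusted p = 0.107 and 0.0999; 2 at an unadjusted p under 0.05), and ADAR passed when dim genes were left out and with an intensity trend. Adjusted p-values of the genes named in this paragraph as rising or falling were at most 0.0390.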

How the data were processed

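RNA was measured in 3 hypoxia and 3 normoxia arrays of MM1S cells, grouped by the condition label; the treatment text, 24 h of hypoxia, is the same on all 6. Per the labels' protocols, RNA was isolated, converted to cDNA and amplified into biotinylated cRNA. The authors deposited linear intensities for 54613 probe sets; their background correction, summary and scaling are not given in the sources used here. Of these, 41091 carried 1 symbol, 1801 several and 11721 none here; only the first were used, and all 73 members matched RefSeq by gene identifier. No pair of arrays shared more than 1.23% of values, so each counted as 1 sample, and the number of arrays limits precision.

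The deposited intensities were turned into log2(intensity + 16), with no filter or further scaling, and tested with limma 3.58.1 in R 4.3.3, without covariates. METTL2A, METTL16, METTL24, NSUN6 and TRMT12 are not analysed here. The members and lists were chosen with earlier results of these data known. Every member is named. Per-array values are given for members changed at least 2-fold and for 8 others chosen by role. Of each further list, up to 4 genes are described by adjusted p, with WTAP and RBM15B besides. In simulated data of 19775 genes with 50 changed at each size, the test found 4 of those changed by 0.3, 22 by 0.5, 45 by 1 and 50 by 2 (log2). The changed genes were drawn from the brighter genes, and 9 unchanged genes were also called. Far fewer genes changed there than the 37.4% that passed here, so these numbers do not give the power of the main fit.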

Additional observations from a re-analysis of the deposited data

How the results depend on the processing

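Of the 49 members that passed, 36 passed in the same direction under every alternative run. Counts of members ranged from 8 to 12 higher and 36 to 43 lower over the settings with all arrays, apart from averaged probe sets, with 6 higher and 39 lower. Of all genes, 16.1% to 17.9% rose and 19.8% to 21.7% fell in the settings that kept dim genes, and 15.3% and 19.2% with averaged probe sets. With dim genes left out, 11 of 67 members rose and 43 fell, beside 29.4% and 36% of all genes there. Leaving out 1 array gave 7 to 8 higher and 35 to 38 lower, with median changes of -0.37 to -0.31. In those fits 14% to 16.6% of all genes rose and 17.4% to 19.9% fell. Leaving out both arrays numbered 0, chosen after seeing the data, gave 8 higher and 36 lower (16.2% and 18.8% of all genes). The median change was -0.28 with quantile normalization. With averaged probe sets ELP2 (-0.21) and METTL15 (0.19) changed sign. With the replicate block, 9 members rose and 39 fell; METTL15, METTL23 and NSUN4 were lost (adjusted p = 0.0685, 0.0634 and 0.0562) and METTL17 and METTL27 gained (0.0342 and 0.0496). Deviations of same-numbered arrays from their group means correlated at 0.24, 0.0064 and 0.21. Between arrays numbered 0 and 2 of opposite groups they correlated at -0.20 and -0.25, and those of hypoxia array 1 were closest to normoxia array 2 (0.11). Whether same-numbered arrays were handled together was not tested. The main fit did not pair them, and the replicate block is the alternative. With a pseudocount of 1 and with median centring METTL15 (adjusted p = 0.0530 and 0.0812) and METTL23 (0.0531 and 0.0683) were lost. METTL26 was lost with median centring (0.0720), quantile normalization (0.0752) and averaged probe sets (0.103), and NSUN4 with median centring (0.0516) and averaged probe sets (0.121). The other RNA modification genes gave 7 to 12 higher and 37 to 49 lower over all alternatives. Of all genes, 14% to 17.9% rose and 17.4% to 21.7% fell in these fits, or 29.4% and 36% with dim genes left out. RefSeq changed the symbol of 0 probe sets, so the fit with platform symbols was identical by construction and tests nothing. With no detection calls, a dim level cannot be told from background; the cause of these shifts was not tested.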

Other observations

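The core letters of the element bound by hypoxia-inducible factors, ACGTG or GCGTG on either strand, were counted in the same promoter windows; CACGTG always contains the first of these. ACGTG was in 14 of 45 windows of members that fell (31.1%), in 5 of 14 windows of members that rose (35.7%) and in 1 of 22 windows of members that did not pass (4.55%), against 23.3% of the windows of all genes measured. GCGTG was in 27 of 45 windows of members that fell, in 6 of 14 of members that rose and in 13 of 22 of members that did not pass, against 43.2% of the windows of all genes measured. Some genes have several overlapping windows, and base composition was not matched, so these shares are descriptions only.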
